A study of Mus musculus with 4 samples.

Results

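Txnip and its alpha-arrestin relatives Arrdc1, Arrdc2, Arrdc3 and Arrdc4, together with the glucose sensor Mlxip, were examined in a mouse hepatoma line with lowered Chd1, a chromatin remodeler. These 6 genes, of 23521 in the table, were taken by name as a family with its glucose sensor, and the family was selected on the RPKM differences between the groups, in which Arrdc4 had already been seen to pass. Their differences between the groups are therefore given as a description. Where it is said whether one of them passed the threshold of the fit across all genes, that is part of the description and supports nothing. All 6 were present in the table and all 6 reached the mean of 1 RPKM that a gene needed to enter the fit across genes, as did 10209 genes in all. RPKM is a read number corrected for the length of the transcript and the size of the library.

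The libraries came from Hepa1-6, a line of cultured mouse hepatoma cells, grown in DMEM with serum. The Chd1KD group (2 libraries) carried a lentiviral shRNA against Chd1, and the Control group (2 libraries) carried a scrambled shRNA and was otherwise wild type. All cells had been selected in 4 μg/ml puromycin for 3 weeks after transduction, and poly(A) RNA was sequenced. The labels do not state that libraries of 1 group are separate transductions. Every SD below is therefore the spread between libraries and may be technical. Each SE comes from the fit across genes, in which a gene's variance is drawn toward a trend over all tested genes. An SE can thus be smaller or larger than the spread of that gene's own libraries gives, and may be technical too. The labels name neither the number of shRNA sequences used nor the glucose content of the medium.

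Alpha-arrestins are adaptor proteins with an arrestin fold and, in most members, short motifs that bind ubiquitin ligases of the NEDD4 family. Through those ligases they mark membrane proteins such as glucose transporters and receptors for internalisation. Txnip is unusual in the family because it also binds thioredoxin, the small disulphide reductase, and in liver and muscle it restrains glucose uptake. Transcription of Txnip and Arrdc4 is driven by Mlxip (MondoA) and, in liver, by its relative Mlxipl (ChREBP), which respond to glucose-6-phosphate and bind carbohydrate response elements as partners of Mlx.

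The targeted gene was lower in the libraries labelled Chd1KD. Chd1 measured 10.4 and 11.3 RPKM in Chd1KD and 21.4 and 22.5 RPKM in Control, a ratio of 0.49 of the group means. The call rule was a Benjamini-Hochberg adjusted p under 0.05 in limma over all tested genes, on log2(RPKM + 1), and Chd1 passed it. Over all genes, 47 of 10209 tested genes passed (0.46%), 28 higher in Chd1KD (0.274%) and 19 lower (0.186%). That balance was not stable: without Chd1KD replicate 1 it was 19 higher and 30 lower, and at an unadjusted p under 0.05 it was 739 higher and 1151 lower. Summed gene RPKM was 466950 and 459381 in Chd1KD, against 484490 and 462332 in Control. The sequencing depth behind these sums is unknown. Of the markers of other liver cell types, 13 were listed at 0 in every library, among them Adgre1 and Clec4f for macrophages, Cdh5 and Kdr for endothelium, Pdgfrb for stellate cells and Cd3e for lymphocytes. The macrophage markers, 6 of 7 of them present in the table, summed to 7.46 and 7.46 RPKM in Chd1KD, against 7.69 and 8.95 RPKM in Control. Most of this was Cd14. The endothelial markers, mostly Stab1, summed to 2.07 and 1.77 RPKM in Chd1KD, against 1.66 and 1.56 RPKM in Control. The fibroblast and stellate markers, almost all of them Dcn, summed to 393.8 and 386.2 RPKM in Chd1KD, against 386.0 and 430.4 RPKM in Control, and the lymphocyte markers to at most 0.069 RPKM in any library. Of the 9 hepatocyte and hepatoma markers, Ttr was listed at 0 throughout and Apoa1 was at or below 0.37 RPKM in every library. The 9 summed to 1845 and 2178 RPKM in Chd1KD, against 2388 and 3265 RPKM in Control. That sum was mostly Apoe, with 784.4 and 1080 RPKM in Chd1KD against 1222 and 2023 RPKM in Control, and Krt18. Krt18, Krt8, Trf and Hnf4a had ratios of 0.84, 0.95, 0.82 and 0.78. Afp went the other way, with 55.2 and 58.3 RPKM in Chd1KD against 29.9 and 39.7 RPKM in Control, and Alb, with overlapping groups, had a ratio of 1.28. The 5 cholangiocyte markers, none of them at 0 in all libraries, summed to 150.9 and 157.0 RPKM in Chd1KD, against 214.4 and 190.6 RPKM in Control. Most of this was Spp1, with 131.9 and 137.0 RPKM in Chd1KD against 188.8 and 161.7 RPKM in Control. Krt7, Epcam and Sox9 had ratios of 0.64, 0.69 and 0.79. Krt19, under the filter on low values, measured 0.085 and 0 RPKM in Chd1KD, against 1.13 and 1.04 RPKM in Control. The part that these marker differences play in the values below was not tested. In a bulk culture, fewer cells expressing a gene and less of its RNA per cell cannot be told apart.

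Of the 6 genes, 1 passed the call rule, Arrdc4, against 0.46% of all tested genes. Because the genes were chosen with this contrast known, nothing is read from that count. Txnip, Arrdc3, Arrdc4 and Mlxip had positive log2 fold changes (Chd1KD minus Control), and Arrdc1 and Arrdc2 had negative ones. The median of the 6 was 0.21 on the log2(RPKM + 1) scale, against -0.02 over all tested genes. In all 6 the libraries of the groups did not overlap, which also held for 51.8% of tested genes, and 4 of the 6 were higher in Chd1KD without overlap, as were 21.3% of tested genes. These groups are those that the choice of genes used, so nothing is read from these counts either.

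Arrdc4, an alpha-arrestin induced by glucose and able to lower glucose uptake, showed the largest ratio of the 6. It lies on the minus strand of chromosome 7 from 68736994 to 68749238 (GRCm38.p6, the assembly behind mm10) and is protein-coding. Arrdc4 measured 7.43 and 7.13 RPKM in Chd1KD, against 4.65 and 4.60 RPKM in Control. Both Chd1KD libraries stood well above both Control libraries, and libraries of a group lay close together. The group means were 7.28 ± 0.21 RPKM in Chd1KD and 4.63 ± 0.039 RPKM in Control (SD, n = 2 each), a ratio of 1.57. Its log2 fold change was 0.56 (SE 0.07), and single libraries within a group differed by 0.05 in Chd1KD and 0.01 in Control on the same log2 scale. Among tested genes 48 had a higher log2 fold change. The call was lost without Chd1KD replicate 1, where the log2 fold change was 0.53, and also without the filter on low values, without the variance trend and with the top transcript of each gene in place of the sum.

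Txnip, the thioredoxin-binding member, was the most abundant alpha-arrestin in both groups. It lies on the plus strand of chromosome 3 from 96557957 to 96561857. Txnip measured 12.6 and 9.20 RPKM in Chd1KD, against 8.71 and 7.85 RPKM in Control. Chd1KD replicate 1 was the highest of the libraries, while Chd1KD replicate 2 was only slightly above Control replicate 1. The means were 10.9 ± 2.4 RPKM in Chd1KD and 8.28 ± 0.61 RPKM in Control (SD, n = 2 each), a ratio of 1.32. The log2 fold change was 0.35 (SE 0.14), smaller than the difference of 0.42 between the Chd1KD libraries. Its log2 fold change was 0.14 without Chd1KD replicate 1 and 0.56 without Chd1KD replicate 2, where alone it met the call rule. The antisense gene Gm15441 overlaps Txnip and was at or below 0.051 RPKM in every library. Whether counting used strand is not stated in the labels, so reads of the pair cannot be told apart.

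The stretches of 250 bases before the annotated start of Txnip and of Arrdc4 are shown because these are the family members with known carbohydrate response elements. They are from RefSeq on GRCm38.p6, 5′ to 3′ on the gene's strand: Txnip at chr3:96557707-96557956 (plus strand) and Arrdc4 at chr7:68749239-68749488 (minus strand). Capitals mark matches, on either strand, to CACGNG (an E-box-like element, which includes every CACGTG) and to CCAAT. In Txnip they also mark a pair of CACGNG elements on 1 strand with 5 unspecified bases between them. That is 1 form of the layout of a carbohydrate response element.
Txnip: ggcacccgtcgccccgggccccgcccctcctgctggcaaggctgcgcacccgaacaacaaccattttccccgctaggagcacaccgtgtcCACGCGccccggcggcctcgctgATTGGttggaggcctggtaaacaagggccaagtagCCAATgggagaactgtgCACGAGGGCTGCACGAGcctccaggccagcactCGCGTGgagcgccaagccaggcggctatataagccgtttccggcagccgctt
Arrdc4: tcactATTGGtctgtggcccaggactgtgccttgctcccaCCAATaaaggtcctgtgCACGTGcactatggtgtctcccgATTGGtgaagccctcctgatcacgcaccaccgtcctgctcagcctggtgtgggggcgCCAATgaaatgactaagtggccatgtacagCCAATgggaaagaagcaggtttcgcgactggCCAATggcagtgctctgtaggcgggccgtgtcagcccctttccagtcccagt
The paired elements were found in Txnip as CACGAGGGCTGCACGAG, from 85 to 69 bases before the start. A pair of this layout, with any base at the unspecified positions, was found in 0.0457% of the 32851 windows of this length in the table. No window of the other members held one. Only this form of the pair, without mismatches, was searched. Its absence, in Arrdc4 too, does not show that a window lacks a carbohydrate response element. The element of Txnip was already known, so nothing is read from its match. Txnip held 4 matches to CACGNG, a motif found in 23.5% of windows, and its pair of elements accounts for 2 of them. It held no CACGTG, and 2 CCAAT boxes. Arrdc4 held a palindromic CACGTG, the core E-box, from 193 to 188 bases before its start, a motif found in 6.02% of windows. Arrdc4 held 6 CCAAT boxes, the element bound by NF-Y. At least 1 such box was in 33.8% of windows and at least 6 were in 0.0578%, a count looked up after the 6 had been seen. The windows of Arrdc1 and Arrdc2 held 2 and 1 matches to CACGNG and those of Arrdc3 and Mlxip held none. TATAAA was in none of the members' windows and in 12.4% of all. Only that exact string was searched, so variants such as the TATATAAG near the end of the Txnip window were not counted. Letters that match are not evidence that a factor binds there, and no binding was measured.

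**Figure D1:**
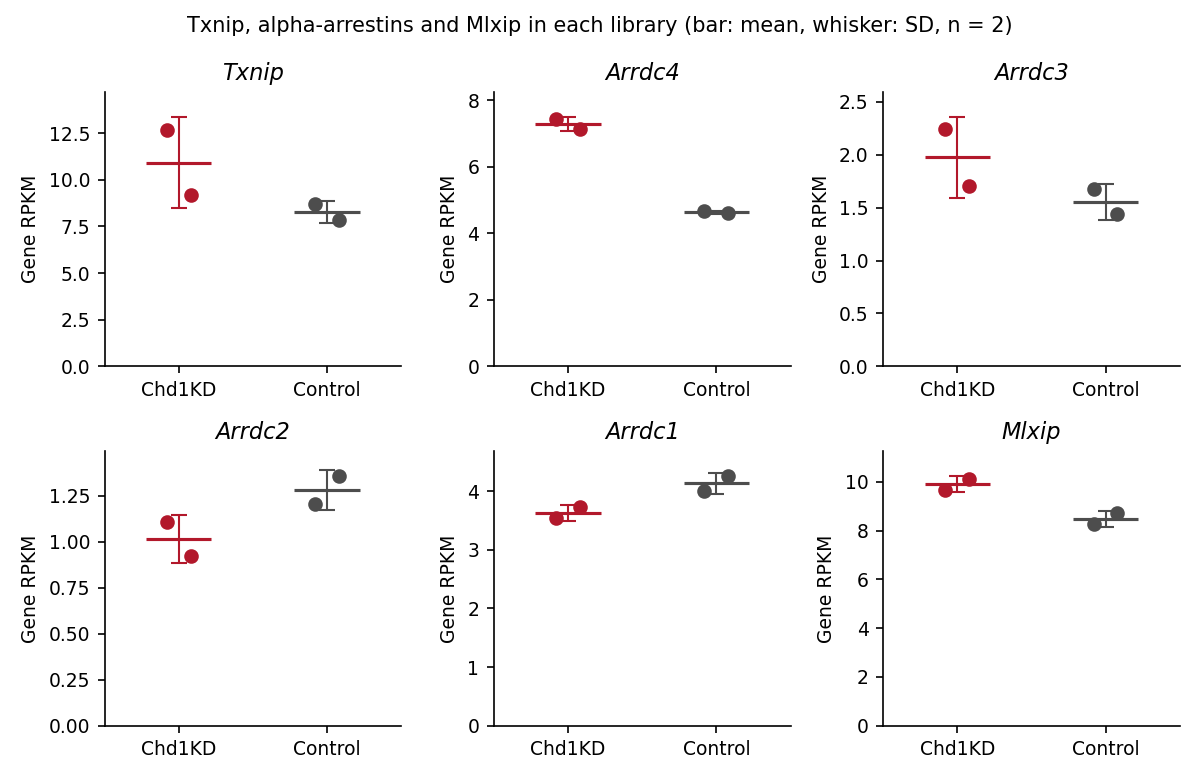
Gene RPKM (y axes, each from 0) of the 6 genes in the 2 Chd1KD and the 2 Control libraries; points are libraries, horizontal bars are group means and whiskers are SD. Arrdc4 lay at 7.13 and 7.43 RPKM in Chd1KD and at 4.60 and 4.65 RPKM in Control, whereas the Txnip libraries of Chd1KD spread from 9.20 to 12.6 RPKM.

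Arrdc3, which takes part in the trafficking of the beta-adrenergic receptor and of integrins, was measured at low levels. It lies on the plus strand of chromosome 13 from 80883384 to 80896042. The gene 1700023H06Rik overlaps it on the other strand and has no value here. Arrdc3 measured 2.24 and 1.71 RPKM in Chd1KD, against 1.67 and 1.44 RPKM in Control. As with Txnip, Chd1KD replicate 1 stood apart and Chd1KD replicate 2 lay next to Control replicate 1. The ratio of means was 1.27 and the log2 fold change 0.22 (SE 0.12), under the 0.26 that separated the Chd1KD libraries. Its log2 fold change was 0.08 without Chd1KD replicate 1 and 0.35 without Chd1KD replicate 2.

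Arrdc1 binds the ESCRT protein Tsg101 at the plasma membrane and drives the budding of small vesicles there. It lies on the minus strand of chromosome 2 from 24925352 to 24935335. Arrdc1 measured 3.53 and 3.72 RPKM in Chd1KD, against 4.01 and 4.25 RPKM in Control. The Chd1KD libraries were both below the Control libraries by a small margin. The ratio was 0.88 and the log2 fold change -0.15 (SE 0.08).

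Arrdc2, a less studied alpha-arrestin on the minus strand of chromosome 8 from 70835129 to 70839720, was the least abundant of the 6. It measured 1.11 and 0.923 RPKM in Chd1KD, against 1.20 and 1.36 RPKM in Control. Chd1KD replicate 1 and Control replicate 1 lay close together. The ratio was 0.79 and the log2 fold change -0.18 (SE 0.11). At this level the log2(RPKM + 1) scale understates a change, and with a mean of 1.15 RPKM Arrdc2 was just inside the filter on low values.

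Mlxip lies on the plus strand of chromosome 5 from 123394521 to 123457932. It measured 9.68 and 10.1 RPKM in Chd1KD, against 8.26 and 8.73 RPKM in Control. Both Chd1KD libraries were above both Control libraries. The means were 9.91 ± 0.32 RPKM in Chd1KD and 8.49 ± 0.33 RPKM in Control (SD, n = 2 each), a ratio of 1.17. The log2 fold change was 0.20 (SE 0.07), against 0.06 and 0.07 between the libraries within Chd1KD and Control. Gm42907, Gm42908 and Gm43813 overlap Mlxip on its own strand and Gm15747 on the other. None of them has a value here, so their part in the reads of Mlxip is unknown.

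**Figure D2:**
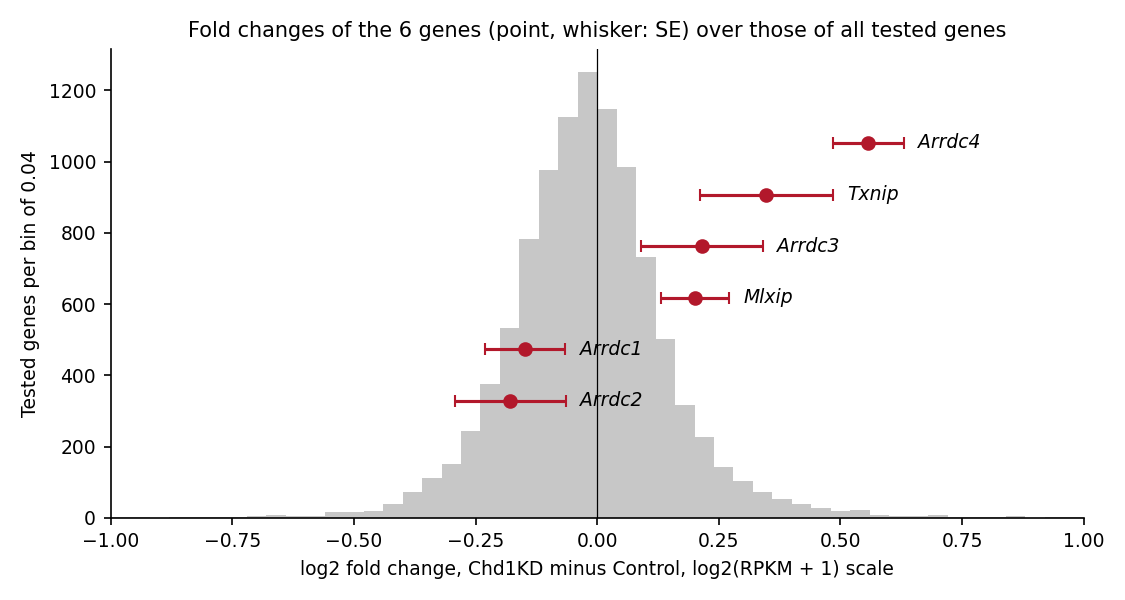
Log2 fold changes, Chd1KD minus Control, on the log2(RPKM + 1) scale (x axis): points with SE whiskers are the 6 genes at arbitrary heights, and the grey histogram (y axis, genes per bin of 0.04) holds the 10209 tested genes, of which 20 lie beyond the axis limits of 1 in either direction. Arrdc4 at 0.56 and Txnip at 0.35 lie in the right tail, and Arrdc1 at -0.15 and Arrdc2 at -0.18 on the left.

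Levels can be set against each other because RPKM is per length. In Chd1KD the order by mean gene RPKM was Txnip, Mlxip, Arrdc4, Arrdc1, Arrdc3 and Arrdc2. In Control the order was the same except that Mlxip stood before Txnip. The libraries of Txnip and Mlxip overlapped in both groups, so these neighbours did not differ beyond their spread, and the libraries of no other neighbours overlapped.

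The gene values are sums over RefSeq transcript rows, and each row of Arrdc4 was higher in Chd1KD. Transcript NM_001042592 of Arrdc4 measured 4.11 and 3.81 RPKM in Chd1KD, against 2.34 and 2.37 RPKM in Control, a ratio of 1.68. Transcript NM_025549 measured 3.32 and 3.32 RPKM in Chd1KD, against 2.31 and 2.23 RPKM in Control, a ratio of 1.46. Each row alone separated the groups, and the share of NM_025549 in the gene sum was 44.7% and 46.6% in Chd1KD, against 49.7% and 48.4% in Control.

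The rows of Txnip differed in pattern over the libraries. Transcript NM_001009935, the major one, measured 9.24 and 6.69 RPKM in Chd1KD, against 7.64 and 5.56 RPKM in Control, and the groups overlapped. Transcript NM_023719 measured 3.41 and 2.50 RPKM in Chd1KD, against 1.07 and 2.30 RPKM in Control. Control replicate 1 stood apart for NM_023719, which made up 12.2% of its Txnip sum, against 27.0% and 27.2% in Chd1KD and 29.2% in Control replicate 2. How reads were divided between overlapping transcripts is an estimate of the authors' software, so these rows carry more uncertainty than the gene sum.

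The remaining members rested on 1 main row. Arrdc1 was carried by NM_001162485, with 86.9% to 92.1% of the gene sum in Chd1KD and 85.4% to 91.1% in Control. Most of the rest was row NR_027876, with 0.278 and 0.489 RPKM in Chd1KD against 0.427 and 0.371 RPKM in Control, and the groups overlapped. The Arrdc1 row NM_178408 was listed at 0 in both Chd1KD libraries and at 0.157 and 0.0085 RPKM in Control. Arrdc2 and Arrdc3 had a single row each, and NM_133917 held 99.8% or more of Mlxip in every library.

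**Figure D3:**
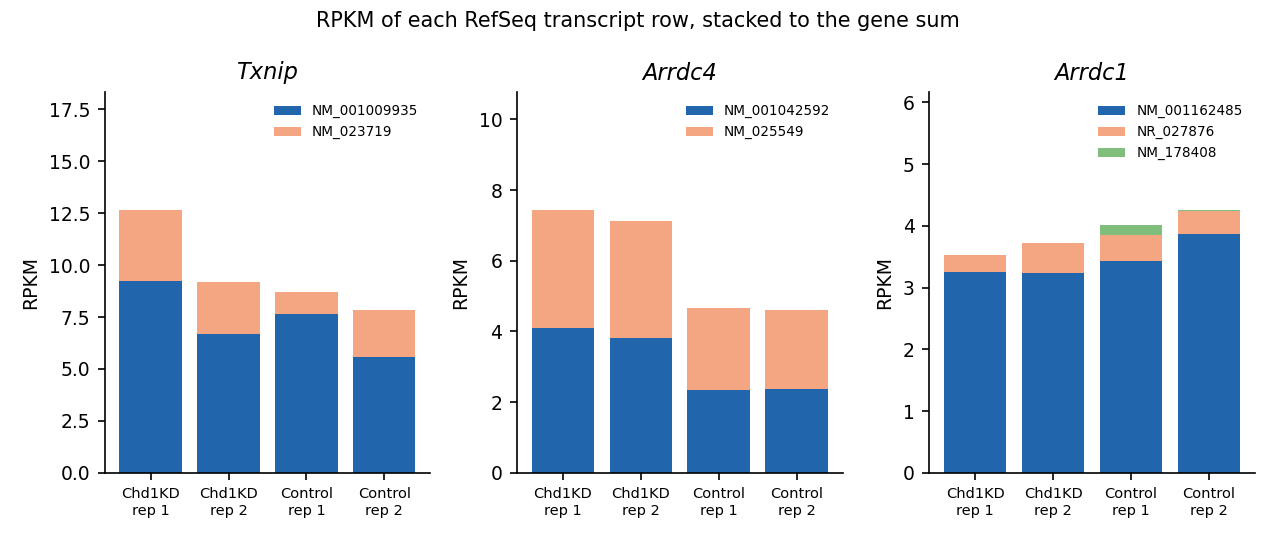
RPKM (y axes, from 0) of each RefSeq transcript row of Txnip, Arrdc4 and Arrdc1, stacked to the gene sum, with 1 bar for each library. Both rows of Arrdc4 were taller in the Chd1KD libraries, whereas the NM_023719 part of Txnip was lowest in Control replicate 1 at 1.07 RPKM.

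The genes most like Arrdc4 and Txnip over the 4 libraries were found by the Euclidean distance between their log2(RPKM + 1) values after each gene's own mean was subtracted. For Arrdc4 the 5 nearest tested genes were Col22a1, Mavs, Ccnyl1, C330007P06Rik and Pmp22, at distances of 0.043 to 0.066. Mavs, the mitochondrial adaptor of antiviral signalling, measured 18.5 and 17.3 RPKM in Chd1KD, against 12.2 and 11.6 RPKM in Control. Ccnyl1, a cyclin Y-like gene, measured 16.3 and 16.3 RPKM in Chd1KD, against 11.1 and 11.1 RPKM in Control. For Txnip they were Slc6a13, Rnf39, Enah, Fgfbp1 and Epp13, at distances of 0.033 to 0.10. Slc6a13, a GABA transporter of the liver, measured 22.5 and 16.1 RPKM in Chd1KD, against 15.5 and 13.8 RPKM in Control, with Chd1KD replicate 1 apart from the rest as in Txnip. A distance over 4 libraries is a description of likeness only, and the choice of near genes fixes their fold changes.

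The surrounding pathway was read from 9 lists of 122 genes, of which 97 were tested. None passed the call rule over all genes in limma, against 0.46% of all tested genes, and no other tool was run. At an unadjusted p under 0.05 there were 4 higher and 11 lower in Chd1KD, against 7.24% of all tested genes higher and 11.3% lower. The median log2 fold change of the 97 was -0.04, against -0.02 over all tested genes, and 42.3% had a positive fold change, against 43.5% of all.

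Partners and relatives of Mlxip were mostly present. Of 12 genes of the Mondo, Mlx, Max and Myc network, 11 were tested, 5 with positive fold changes, and the list median was -0.06. Mlxipl was at or below 0.023 RPKM in every library, so of the glucose sensors only Mlxip was measured above the filter. Mlx, the obligate partner, measured 20.0 and 20.7 RPKM in Chd1KD, against 21.9 and 20.7 RPKM in Control. Max, the partner of Myc, averaged 34.8 ± 0.60 RPKM in Chd1KD and 30.0 ± 0.82 RPKM in Control (SD, n = 2 each). Myc averaged 61.4 ± 3.2 RPKM in Chd1KD and 67.4 ± 0.42 RPKM in Control, and the Myc antagonists Mxd3 and Mxd4 had ratios of 0.80 and 1.21.

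Target genes of the glucose response in liver had fold changes of either sign and none was called. Of 17, 11 were tested, 4 with positive fold changes, and the list median was -0.06. Pfkfb3, which makes the activator of glycolysis fructose-2,6-bisphosphate, averaged 8.23 ± 0.76 RPKM in Chd1KD and 6.18 ± 0.73 RPKM in Control, a ratio of 1.33. Pklr, liver pyruvate kinase and a classical ChREBP target, averaged 5.33 ± 0.48 RPKM in Chd1KD and 7.11 ± 0.27 RPKM in Control, a ratio of 0.75. The lipogenic enzymes Me1 and Fasn had ratios of 1.04 and 0.94. Thrsp, G6pc and Fgf21 were listed at 0 in every library.

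The redox partners of Txnip held no called gene. All 16 genes of the thioredoxin and peroxiredoxin system were tested, none reached an unadjusted p under 0.05, and the list median was -0.03. Txn1, the thioredoxin that Txnip binds, measured 780.1 and 764.4 RPKM in Chd1KD, against 832.1 and 757.9 RPKM in Control, and the groups overlapped. Txnrd1, the cytosolic thioredoxin reductase, had a ratio of 1.12, Txnrd3 of 0.83 and the peroxidase Prdx1 of 0.98.

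Among the cargo and its metabolism, 7 of 18 glucose transporters and glucose-phosphorylating genes were tested, with a list median of -0.01 and none at an unadjusted p under 0.05. Slc2a1, the transporter that Txnip takes off the surface, measured 41.2 and 41.9 RPKM in Chd1KD, against 33.7 and 41.8 RPKM in Control. The Control libraries differed more from each other than the group means did. Hk1, the main hexokinase here, had a ratio of 0.99, and Slc37a4, the glucose-6-phosphate carrier of the endoplasmic reticulum, had 0.87. Slc2a2, the transporter of mature hepatocytes, was at or below 0.19 RPKM in every library.

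Of the NEDD4-family ligases that alpha-arrestins recruit, 7 of 9 were tested, 4 with positive fold changes, and the list median was 0.05. Nedd4, the most abundant, averaged 165.7 ± 1.6 RPKM in Chd1KD and 181.3 ± 3.0 RPKM in Control. Wwp1 and Wwp2 had ratios of 1.17 and 0.83, and Itch of 1.06. Of the ESCRT and ALIX genes, which sort ubiquitinated cargo and serve Arrdc1 in budding, 25 of 26 were tested and the list median was -0.07. At an unadjusted p under 0.05 there were 7 of these 25, all lower in Chd1KD, against 11.3% of all tested genes lower at that p, and none passed over all genes. Chmp6 averaged 19.6 ± 0.98 RPKM in Chd1KD and 25.5 ± 1.5 RPKM in Control, a ratio of 0.77, and it passed only without Control replicate 2. Mvb12a had a ratio of 0.82, Chmp4b of 1.03 and Chmp5 of 1.03.

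The other regulators and relatives held no called gene either. AMPK acts on Txnip protein, and Stk11 is the kinase of AMPK. The list of AMPK subunits and Stk11 had 7 of 8 tested, none at an unadjusted p under 0.05, and a median of -0.04. The regulatory subunits Prkab1, Prkab2 and Prkag1 had ratios of 0.90, 0.87 and 1.02, and Stk11 had 0.96. Among the 8 other transcription factors known to act on Txnip the median was 0.01. Of these, Nfyb and Nfya, subunits of the CCAAT-binding factor NF-Y, had ratios of 0.79 and 1.15, Klf6 had 1.08 and the glucocorticoid receptor gene Nr3c1 had 1.02. The arrestin-fold relatives had 5 of 8 tested, 1 with a positive fold change, and a median of -0.08. Arrb1 and Arrb2, the beta-arrestins, had ratios of 0.89 and 0.98, the retromer gene Vps26a had 0.90, and Arrdc5, the remaining alpha-arrestin, was listed at 0 in every library.

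**Figure D4:**
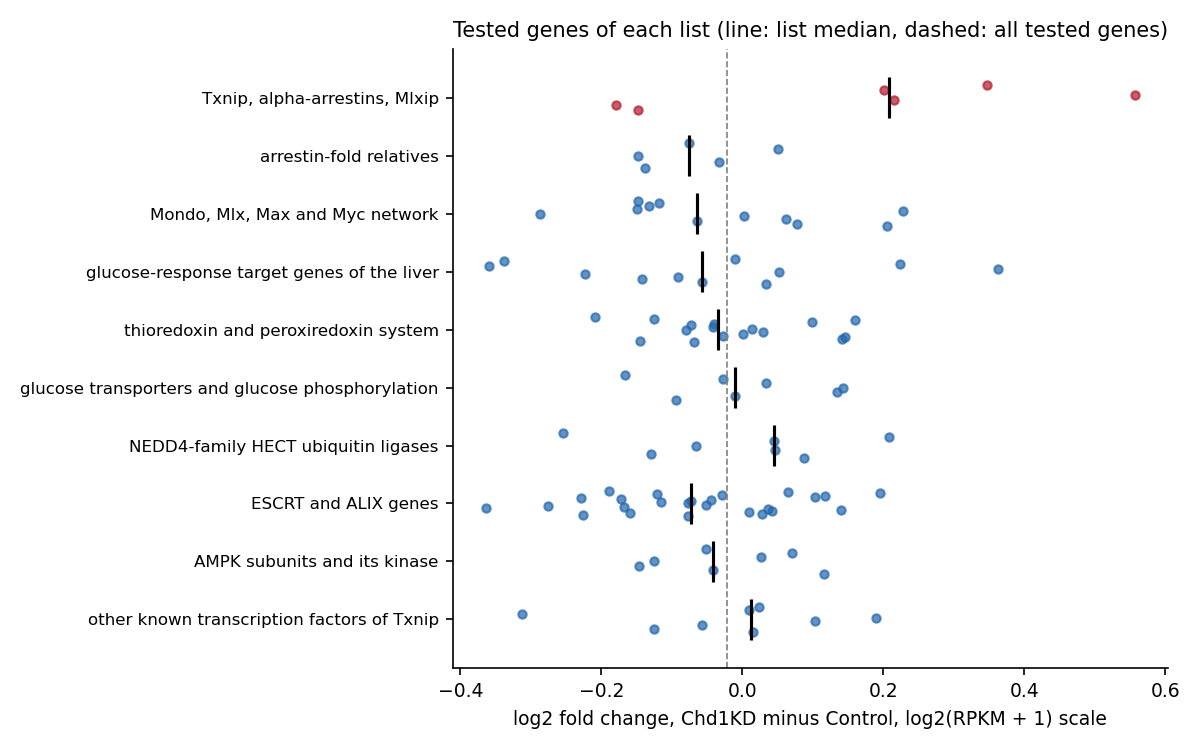
Log2 fold changes, Chd1KD minus Control, on the log2(RPKM + 1) scale (x axis) of the tested genes of each list (rows); black lines are list medians and the dashed line at -0.02 is the median of all tested genes. The 6 genes of the top row, chosen with this contrast known, have a median of 0.21, and the medians of the 9 lists below lie between -0.08 and 0.05.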

How the data were processed

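RNA was measured in 4 libraries (2 Chd1KD, 2 Control), grouped by sample title. The authors deposited RPKM values for 30582 RefSeq transcript rows, as their file headers say. The submitters' processing notes give mm10 as the build, and Cufflinks 1.3.0 and TopHat 1.4.1 as tools, without strand setting or annotation release. The tables of the 4 single samples were identical to the series table. Rows were named through NCBI's GRCm38.p6 table (30003 rows) and GENCODE M21 (180 rows), 399 kept their accession, and RPKM was summed per gene. RPKM carries no counts: the commonest ratio of low values put the other libraries at 0.99 of Control replicate 1, but at most 62 of 791 rows showed it, so depth is unknown. A value of 0 need not mean absence, since 10 genes averaging 5 RPKM or more had a 0 in some library.

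Genes averaging 1 RPKM or more were fitted on log2(RPKM + 1) in limma 3.58.1 (R 4.3.3), using a mean-variance trend, no block, Benjamini-Hochberg adjustment over all tested genes and a threshold of 0.05. An exact permutation test over 2 against 2 libraries was not used. The members and lists were chosen with earlier results of these data known. Named from each list were the 2 tested genes with the largest fold change and the 2 most abundant; Mlx, Mlxipl, Arrdc5, Thrsp, G6pc, Fgf21 and Slc2a2 were added for their role or absence after their values were seen. Promoter sequences were found for all 6 members in RefSeq (GRCm38.p6); protein sequences were not used here. Figures were drawn with matplotlib 3.10.9.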

Additional observations from a re-analysis of the deposited data

How the results depend on the processing

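Each of the 15 alternatives kept the sign of every member it tested; a filter of 5 RPKM left 3 of the 6 to test, all positive, and elsewhere 4 of 6 were positive. Arrdc4 ranged from 0.53 to 0.64 in log2 fold change. It was not called at 0.56 without a filter on low values, at 0.56 without a variance trend, or at 0.56 when each gene was represented by its top transcript, where 0 of the members were called. Leaving out 1 library gave 0.53 to 0.58 for Arrdc4, 0.14 to 0.56 for Txnip and 0 to 2 members called. The cause was not tested. Against 47 genes called, the count was 0 without the filter (limma, 2120 genes at an unadjusted p under 0.05, no other tool run), 71 with a filter of 5 RPKM, 95 with RPKM rescaled to 1 common sum, 6 without a trend, 92 with a robust trend, 12 with the top transcript, and 49 to 236 with 1 library left out. Calls higher in Chd1KD were 28 of 47, against 19 of 49 without Chd1KD replicate 1, 119 of 236 without Control replicate 2, 5 of 12 with the top transcript and 158 of 325 with the replicate block. Of the pathway genes, 0 to 1 were called with 1 library left out (Chmp6).

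The replicate numbers carry no stated pairing. The replicate difference in Chd1KD correlated with that in Control at r = 0.22 across 10209 genes, which are not independent. With the number as a replicate block, 325 genes were called, among them Arrdc4 and, of the pathway genes, 2 (Pfkfb3 and Scd1). Txnip and Arrdc3 were higher in replicate 1 of both groups, by 0.42 and 0.26 in Chd1KD and by 0.13 and 0.13 in Control. With the block their SE was 0.08 and 0.09, and neither was called. With 2 libraries a group and unknown depth, small differences of genes near 1 RPKM, such as Arrdc2, are not resolved.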
